A study of Mus musculus with 18 samples.

Results

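Common lymphoid progenitors (CLPs) were compared with multipotent progenitors (MPPs) after deletion of *Trim33*, in the 6 libraries of these populations that are labelled KO among the 18 RNA-seq libraries of the series: 3 of CLPs and 3 of MPPs. KO stands for this label throughout. Lineage-negative marrow cells were sorted, MPPs as CD34+ FLT3+ cells with high CD117 and CLPs as CD127+ FLT3+ cells with intermediate CD117 and no CD11c. The KO libraries come from bone marrow of C57BL/6 *Trim33* fl/fl Cre-ERT2 mice of 6 to 8 weeks that were given tamoxifen, 2 mg daily for 5 days, and left for 7 days, which removes exons 2 to 4 of *Trim33* in any cell where the recombinase acts. The 3 WT CLP and 3 WT MPP libraries, from *Trim33* fl/fl mice without the recombinase that by the study's account received tamoxifen too, were used only to read which differences between the populations were also present with *Trim33*. Cre-ERT2 was not restricted to progenitors, so the sorted cells came from mice in which other tissues could recombine too, and the labels do not say how many mice gave each library.

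MPPs are stem-like cells of the marrow that can still give rise to every blood lineage, whereas CLPs express the receptor for interleukin 7 and give rise mainly to B cells, T cells, innate lymphoid cells and some dendritic cells (DCs). The passage between them is known for the start of antigen receptor recombination and of the B cell programme under EBF1 and PAX5, and for the loss of stem cell regulators and of granulocyte genes. TRIM33 is a chromatin-binding co-factor of transcription and an E3 ubiquitin ligase that has been studied in granulopoiesis, erythropoiesis and DC development.

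The deposited values are FPKM, that is reads per kilobase of a transcript relative to all mapped reads of the library, from single-end reads of 50 bases of poly-A RNA, in 1 table for CLPs and another for MPPs. The 18169 genes in both tables were joined and each library was divided by 1 factor, so every level below is a rescaled FPKM on a scale set here across both tables. A log2 fold change is CLP minus MPP on log2(rescaled FPKM + 1), printed as estimate ± standard error (SE), and differences of weakly expressed genes are compressed on this scale. A gene was called where its limma adjusted p was 0.05 or less (Benjamini-Hochberg over all tested genes) and its log2 fold change was 1 or more in either direction. Population and table cannot be told apart in these comparisons, and p-values measure the spread between libraries, which may be technical. In such bulk samples fewer cells of a type and less RNA per cell cannot be told apart either.

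The estimated depth was similar, with 19.29 to 20.57 M mapped reads in the CLP and 20.28 to 21.54 M in the MPP libraries. The library MPP KO 3 stood apart: its log2 values correlated with those of MPP KO 1 and MPP KO 2 at 0.957 and 0.944, whereas the other pairs of libraries of 1 group correlated at 0.977 to 0.994, and results are therefore also given without it where they change. As it was picked for its deviation, leaving it out lowers the spread (median SE 0.158 with it and 0.129 without it in KO). The p-values without MPP KO 3 are therefore too small to be taken at face value. *Trim33* itself had 7.44, 5.5 and 7.82 rescaled FPKM in KO CLPs 1, 2 and 3 and 10.5, 12.5 and 4.61 in KO MPPs 1, 2 and 3, against 12, 7.02 and 9.05 in WT CLPs and 10.2, 9.84 and 8.39 in WT MPPs. The gene-level values of KO and WT MPPs overlapped, so they do not check the KO label, and reads over the deleted exons were not analysed here. Of other cell types, the CD3 genes of T cells summed to at most 0.505 rescaled FPKM in any KO library. The mature B cell gene *Ms4a1* was nearly 0, but other mature B and plasma cell markers were expressed. The 8 markers of that list summed to 301, 319 and 330 in KO CLPs and 269, 263 and 207 in KO MPPs. Of the 4 tested, limma called 0 (2 at an unadjusted p below 0.05). The 9 stromal and endothelial markers summed to 47.3, 77.9 and 51.2 in KO CLPs and 30.3, 27 and 34.6 in KO MPPs, mostly *Pecam1*, with *Col3a1* at 0 or nearly so, and *Col1a1* reached 12 only in CLP KO 2. None of the 4 tested stromal and endothelial markers was called in limma (1 at an unadjusted p of at most 0.05). In contrast, the 9 stromal and endothelial markers summed to 97.0, 363 and 433 in WT CLPs and 41.9, 42.6 and 38.2 in WT MPPs, with 2 of 5 called higher in WT CLPs. Their part in any result, the interaction included, was not tested.

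KO CLPs differed from KO MPPs by higher B lymphoid genes on one side and lower neutrophil, basophil, platelet and stem cell genes on the other. Of 12299 genes tested, 288 (2.34%) were called higher and 313 (2.54%) lower in KO CLPs. In each of these 601 the 3 CLP values did not overlap the 3 MPP values. That also held for 4735 of all tested genes, the 601 included, so it adds little to the call. Without MPP KO 3 the counts of called genes were 491 (3.99%) and 829 (6.74%) of 12307, and 284 of the 288 and 302 of the 313 were among them. Rescaled to TPM instead, which moved the median of all genes by 0.15, 517 were called higher and 344 lower. Of the 10 genes with the largest positive fold change and at least 10 rescaled FPKM in CLPs, those reported here were the surrogate light chain genes *Igll1*, *Vpreb1*, *Vpreb2* and *Vpreb3*, the recombinase gene *Rag1*, the B cell receptor gene *Cd79a*, the B cell co-activator gene *Pou2af1*, *Ly6d* and the precursor of the microRNA *Mir686*, from 3.96 (*Vpreb2*) to 5.01 (*Igll1*). *Mir686* had 17, 22.4 and 11.6 in CLPs and was listed at 0 in all 3 KO MPPs, and FPKM of so short a gene rests on few reads. The 10 largest negative fold changes ran from -3.34 (*Elane*) to -5.39 (*Hist1h2ap*).

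Those 10 lower genes were mostly granulocyte genes: *Elane*, *Ngp*, *Lcn2* and *Pglyrp1* of neutrophil granules, *Prg2* of eosinophil and basophil granules, the basophil protease gene *Prss34*, and *Stfa3* of the stefin A family of protease inhibitors. The other 3 were the histone gene *Hist1h2ap*, the stem and endothelial cell gene *Myct1* and the globin gene *Hbb-bt*. *Hist1h2ap* had 6.15, 16.8 and 17.2 in CLPs 1 to 3 and 675, 564 and 445 in MPPs, but it is 1 of several near-identical histone genes between which reads can be divided, and most histone transcripts have no poly-A tail. *Myct1* had 0.574, 0.618 and 0.837 in CLPs and 39, 41.3 and 8.2 in MPPs, with MPP KO 3 the lowest MPP library and still far above every CLP. *Pglyrp1*, encoding a bactericidal granule protein, had 1.98, 5.04 and 4.32 and 61.3, 45.7 and 38.7 (-3.41 ± 0.297, adjusted p = 0.00163). *Prg2* had 5.16, 0.805 and 5.4 and 88.2, 68.5 and 27.8 (-3.76 ± 0.599, adjusted p = 0.0104).

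The genes of the sort gates are no finding, but they check the labels. *Il7r*, encoding CD127, by which CLPs were selected, had 37.2, 38 and 43.9 in KO CLPs and 2.04, 2.12 and 8.08 in KO MPPs (3.2 ± 0.413, adjusted p = 0.00533), with the highest MPP value in MPP KO 3. *Kit*, encoding CD117, for which MPPs were sorted as high and CLPs as intermediate, had 18.4, 18.6 and 22.9 and 32.3, 37.3 and 47.9 (log2 fold change -0.93), against 13.5, 13.3 and 11.7 in WT CLPs and 70.1, 72.7 and 68.5 in WT MPPs. *Flt3*, required in both gates, had 302, 321 and 336 and 243, 241 and 283. *Cd34* and *Ly6a* (Sca-1) had means of 219 and 26.4 in KO CLPs and 411 and 40.1 in KO MPPs. Among genes whose products were used to deplete mature cells, the neutrophil gene *Ly6g* had 0.0594, 0.393 and 0.245 in KO CLPs and 2.83, 1.7 and 2.79 in KO MPPs.

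**Figure D1:**
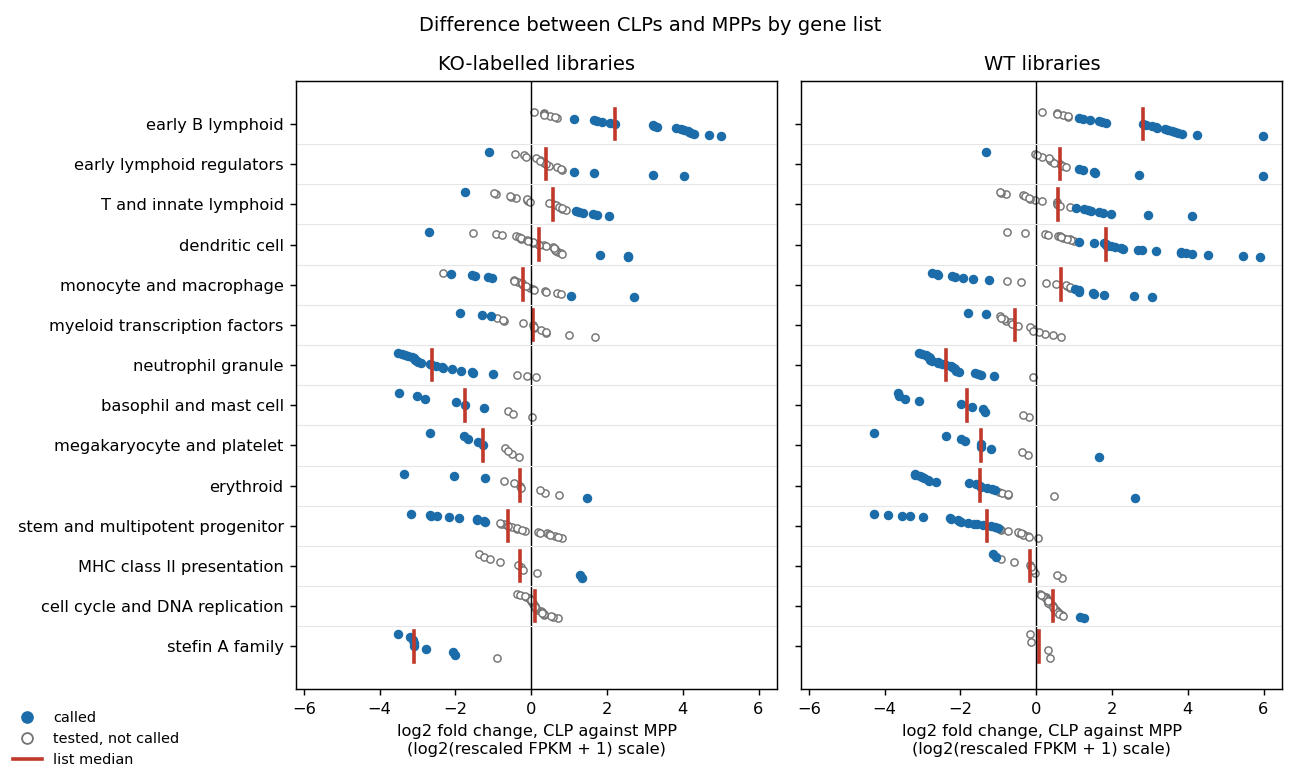
Log2 fold changes (CLP minus MPP, on log2 of rescaled FPKM + 1) of the tested members of each gene list, in KO libraries (left panel) and in WT libraries (right panel), each point being 1 gene. In the KO panel early B lymphoid members lie mostly above 0, with a median of 2.22, and neutrophil granule members below 0, with a median of -2.61. Dendritic cell members lie around 0 there, with a median of 0.20.

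The promoters of 4 genes from both ends of the comparison are printed here, as the lymphoid and the granulocyte side of the difference between KO CLPs and KO MPPs: *Igll1* and *Rag1*, the early B lymphoid genes with the largest difference that had an entry, and *Ngp* and *Lcn2*, the same for neutrophil granule genes. Each run is the 250 bases before the gene's start, 5′ to 3′ on the gene's strand, from RefSeq GRCm38.p6. *Igll1* lies on the minus strand (chr16:16863986-16864235), as do *Rag1* (chr2:101649533-101649782) and *Lcn2* (chr2:32387740-32387989), and *Ngp* on the plus strand (chr9:110419558-110419807). Capitals mark matches, on either strand, to a motif of EBF factors (CCCNNGGG), of PU.1 (GAGGAA) or of C/EBP factors (TTGCNNAA).
Igll1: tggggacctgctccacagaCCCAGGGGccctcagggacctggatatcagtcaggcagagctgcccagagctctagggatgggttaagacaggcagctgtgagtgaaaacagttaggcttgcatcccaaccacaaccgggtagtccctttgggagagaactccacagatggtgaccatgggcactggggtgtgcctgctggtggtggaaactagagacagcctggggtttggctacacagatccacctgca
Rag1: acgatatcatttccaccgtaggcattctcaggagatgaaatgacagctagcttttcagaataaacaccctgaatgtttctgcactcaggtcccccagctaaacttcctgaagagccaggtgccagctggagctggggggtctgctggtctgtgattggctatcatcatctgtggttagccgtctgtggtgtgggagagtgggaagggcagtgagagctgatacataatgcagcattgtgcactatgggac
Ngp: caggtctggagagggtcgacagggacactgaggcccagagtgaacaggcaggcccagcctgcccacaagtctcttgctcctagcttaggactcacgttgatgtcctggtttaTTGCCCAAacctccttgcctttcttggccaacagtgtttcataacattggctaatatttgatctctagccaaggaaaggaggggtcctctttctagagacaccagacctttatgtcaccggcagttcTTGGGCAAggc
Lcn2: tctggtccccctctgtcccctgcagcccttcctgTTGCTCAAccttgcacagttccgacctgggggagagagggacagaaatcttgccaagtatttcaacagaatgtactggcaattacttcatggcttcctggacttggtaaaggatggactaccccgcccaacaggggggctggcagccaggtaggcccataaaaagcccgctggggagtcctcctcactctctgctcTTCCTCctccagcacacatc
The 3 motifs were searched in the 250 bases before the start of 32851 RefSeq promoters, and matches of different motifs could overlap. A listed gene counted as matched where any of its promoters matched, while the percentages count single promoters. The gene counts and the percentages are therefore not on an equal basis. The C/EBP motif was present in 9.56% of all promoters, in 6 of 17 called neutrophil granule genes with an entry and in 1 of 14 called early B lymphoid genes. The PU.1 motif was in 23.3% of all, 10 of 17 and 6 of 14, and the EBF motif in 11.8%, 2 of 17 and 1 of 14, the last being *Igll1*. A match describes the letters only, and *Rag1* has none of the 3 in this window.

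The early B lymphoid genes were higher in KO CLPs in most members. Of 25 tested members 18 were called higher and 0 lower, where 2.34% and 2.54% of all tested genes were called, with a median log2 fold change of 2.22 beside -0.0030 over all tested genes. This list, like every gene list below, was written with earlier results of these data known, so list counts are no independent evidence of a direction. *Igll1*, encoding the λ5 part of the surrogate light chain, had 35.7, 117 and 119 rescaled FPKM in KO CLPs 1, 2 and 3 and 2.8, 0.849 and 1.19 in KO MPPs (5.01 ± 0.501, adjusted p = 0.0025). *Vpreb1*, its partner, had 51.7, 136 and 129 and 6.51, 2.85 and 4.06 (4.22 ± 0.412). In both genes CLP KO 1 was the lowest CLP library, and still above every MPP. *Vpreb2*, a near copy of *Vpreb1* with which reads can be shared, had 37.2, 64.9 and 55.9 and 2.03, 1.56 and 3.89 (3.96 ± 0.296). *Cd79a*, encoding the signalling chain Igα, had 57, 117 and 122 and 6.09, 2.6 and 3.46 (4.28 ± 0.359, adjusted p = 0.00152). *Pou2af1* had 13.9, 34 and 34.7 and 0.594, 0.236 and 0.654 (4.16 ± 0.35), and *Vpreb3* 22, 57.4 and 65.2 and 2.29, 1.63 and 0.836 (4.15 ± 0.425). The lowest CLP library was CLP KO 1 in each of these genes.

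The genes of antigen receptor recombination were called higher too. *Rag1*, encoding the recombinase, had 47.9, 53.4 and 60.0 in KO CLPs and 0.658, 0.355 and 3.08 in KO MPPs (4.7 ± 0.393, adjusted p = 0.00152), with MPP KO 3 the highest MPP. *Rag2*, its partner, had 6.43, 13.4 and 11 and 0.723, 0.387 and 4.33 (2.22 ± 0.52, adjusted p = 0.0348), and its call was lost without CLP KO 1, CLP KO 2, CLP KO 3, MPP KO 1 or MPP KO 2 (adjusted p between 0.0711 and 0.136). *Dntt*, encoding the terminal transferase that adds bases at recombined joints, was abundant in both populations, with 1871, 2235 and 2133 in CLPs and 595, 477 and 1012 in MPPs (1.65 ± 0.263, adjusted p = 0.0104). Its groups did not overlap, but MPP KO 3 was well above the other MPPs, and the call was lost without CLP KO 2 (adjusted p = 0.0518) or CLP KO 3 (adjusted p = 0.0554).

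The regulators of the B cell programme were called too. *Ebf1*, the factor that starts it, had 17.5, 22 and 27.3 and 1.65, 1.13 and 1.53 (3.24 ± 0.191, adjusted p = 6.87e-04), and *Pax5*, which fixes B cell identity, 13.8, 19.9 and 27.1 and 0.443, 0.419 and 0.529 (3.81 ± 0.236, adjusted p = 7.23e-04). Of the B cell signalling genes *Blk* had 43.4, 28.5 and 25.6 and 1.21, 2.04 and 4.3 (3.31 ± 0.346) and *Blnk* 85.8, 86.6 and 83.5 and 7.0, 7.07 and 11.6 (3.21 ± 0.188). *Ly6d*, which marks CLPs already directed to B cells, had 244, 255 and 251 in KO CLPs and 14.2, 13.3 and 15.9 in KO MPPs (4.02 ± 0.0984, adjusted p = 2.03e-05), with little spread. In WT CLPs it was higher, at 706, 913 and 1192, against 14.2, 12.1 and 14.2 in WT MPPs (5.99). The other called members were *Lef1*, *Cd79b*, *Bst1* and *Bach2*, with log2 fold changes of 2.07, 1.86, 1.73 and 1.13. The call was lost without CLP KO 2, CLP KO 3 or MPP KO 1 for *Cd79b* (adjusted p up to 0.0636) and without CLP KO 2, CLP KO 3, MPP KO 1 or MPP KO 2 for *Bst1* (up to 0.0681). Of the 7 that were not called, *Tcf3* and *Foxo1*, factors upstream of EBF1, had log2 fold changes of 0.69 and 0.50, and *Irf4* 0.63, *Cd72* 0.34, *Cd24a* 0.34, *Btla* 0.35 and *Ptpn6* 0.061. *Ikzf3* was too low to test and 1 more member was not analysed here.

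In the WT libraries 19 of 25 early B lymphoid members were called higher in CLPs (4.65% of all tested genes were), with a median of 2.82, and 17 were called in both genotypes. *Rag1* had 16.5, 15.2 and 16.6 in WT CLPs and 1.56, 1.51 and 1.21 in WT MPPs, so its WT log2 fold change of 2.82 was smaller than that of 4.7 in KO libraries, and the difference between the genotypes, tested as the interaction of population and genotype in the same tool, had an adjusted p of 0.0224. That test was lost without CLP KO 2, CLP KO 3, CLP WT 2, MPP KO 1, MPP WT 1 or MPP WT 2 (adjusted p up to 0.0588). For *Igll1* these values were 5.01 and 3.84, which the test did not separate (adjusted p = 0.315). The interaction equals the genotype difference within the CLP table minus that within the MPP table, so that an offset of a gene shared by all libraries of 1 table cancels. It passed for 694 genes in the positive direction (5.58%) and 568 in the negative (4.56%) of 12446, and for 1 and 2 of the 25 early B members (3 and 6 without MPP KO 3, where 18.1% and 17.5% of all tested genes passed).

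Of 17 tested early regulators of the lymphoid lineages 4 were called higher and 1 lower in KO CLPs (2.34% and 2.54% of all tested genes), with a median of 0.38. The higher ones include the gate gene *Il7r*, which is no finding, and *Ly6d* and *Dntt*, already counted with the early B lymphoid genes. Only *Myb* is added here. *Myb*, a factor of proliferating progenitors, had 195, 168 and 192 in CLPs and 74.1, 69.8 and 113 in MPPs (1.13 ± 0.189, adjusted p = 0.0125), with MPP KO 3 nearest to the CLPs, and the call was lost without CLP KO 1 (adjusted p = 0.0556), CLP KO 3 (adjusted p = 0.0646) or MPP KO 1 (adjusted p = 0.0584). *Ikzf2*, encoding Helios, had 0.475, 0.56 and 0.949 and 2.6, 2.65 and 2.42 and was lower (-1.11 ± 0.148, adjusted p = 0.00596). *Ikzf1*, encoding Ikaros, *Bcl11a*, *Foxp1* and *Runx1* were not called, with log2 fold changes of 0.47, 0.78, 0.69 and 0.23. *Tcf4*, encoding the E protein E2-2 of B cells and plasmacytoid DCs, had 24.8, 23 and 29.7 and 18.8, 22.3 and 19.9 (0.33 ± 0.132, adjusted p = 0.136), against 72.6, 46.2 and 46.9 in WT CLPs and 17.9, 18.8 and 18 in WT MPPs (1.52).

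Of 23 tested genes of T cells and innate lymphoid cells, 6 were called higher and 1 lower (2.34% and 2.54% of all tested genes). Their median was 0.59. *Cd247*, encoding the CD3ζ chain, had 16, 18.2 and 19.4 in CLPs and 3.88, 2.56 and 4.46 in MPPs (2.04 ± 0.188, adjusted p = 0.0020), although the other CD3 genes were near 0. *Notch1*, whose signal directs cells to the T lineage, had 111, 74 and 93.6 and 32.1, 37 and 44.6 (1.26 ± 0.181, adjusted p = 0.00736), and *Ets1* 28, 32.4 and 37.1 and 9.15, 7.19 and 13.9 (1.63 ± 0.232, adjusted p = 0.0072). All 3 were also called in WT libraries, at 1.38, 1.04 and 1.45.

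*Il18r1*, encoding the interleukin 18 receptor, had 22.7, 19.8 and 24.6 in KO CLPs and 4.77, 4.65 and 9.69 in KO MPPs (1.73 ± 0.26, adjusted p = 0.00867), where WT CLPs had 7.88, 5.35 and 7.82 and WT MPPs 4.32, 4.37 and 4.64. *Itga4*, encoding integrin α4, had 54.4, 42.6 and 53.4 and 15, 16.5 and 26.1 (1.37 ± 0.215, adjusted p = 0.00981). Each of these calls was lost without CLP KO 3 (adjusted p = 0.0513 and 0.0562). *Klrd1*, encoding CD94 of natural killer cells, had 2.77, 5.78 and 7.29 and 1.75, 1.25 and 1.94 (1.18 ± 0.298, adjusted p = 0.0433), and its call was lost without CLP KO 2, CLP KO 3, MPP KO 1 or MPP KO 2 (adjusted p between 0.116 and 0.142). *Il2rb*, encoding the β chain of the interleukin 2 and 15 receptors, was the called member that was lower in KO CLPs, with 0.386, 0.992 and 0.796 against 3.54, 5.63 and 5.18 (-1.74 ± 0.208, adjusted p = 0.00435). *Cd7*, a gene of T cells and plasmacytoid DCs, had 2.62, 3.25 and 4.63 in KO CLPs and 4.18, 4.69 and 5.8 in KO MPPs (-0.40 ± 0.203, adjusted p = 0.207). WT CLPs had 112, 171 and 141, above WT MPPs at 7.39, 6.79 and 7.24 (4.11). *Thy1* likewise had 5.63, 4.98 and 4.2 and 5.54, 4.35 and 6.19 in KO libraries (-0.095) and 14.5, 19 and 20.6 and 5.47, 4.81 and 4.74 in WT libraries (1.65).

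**Figure D2:**
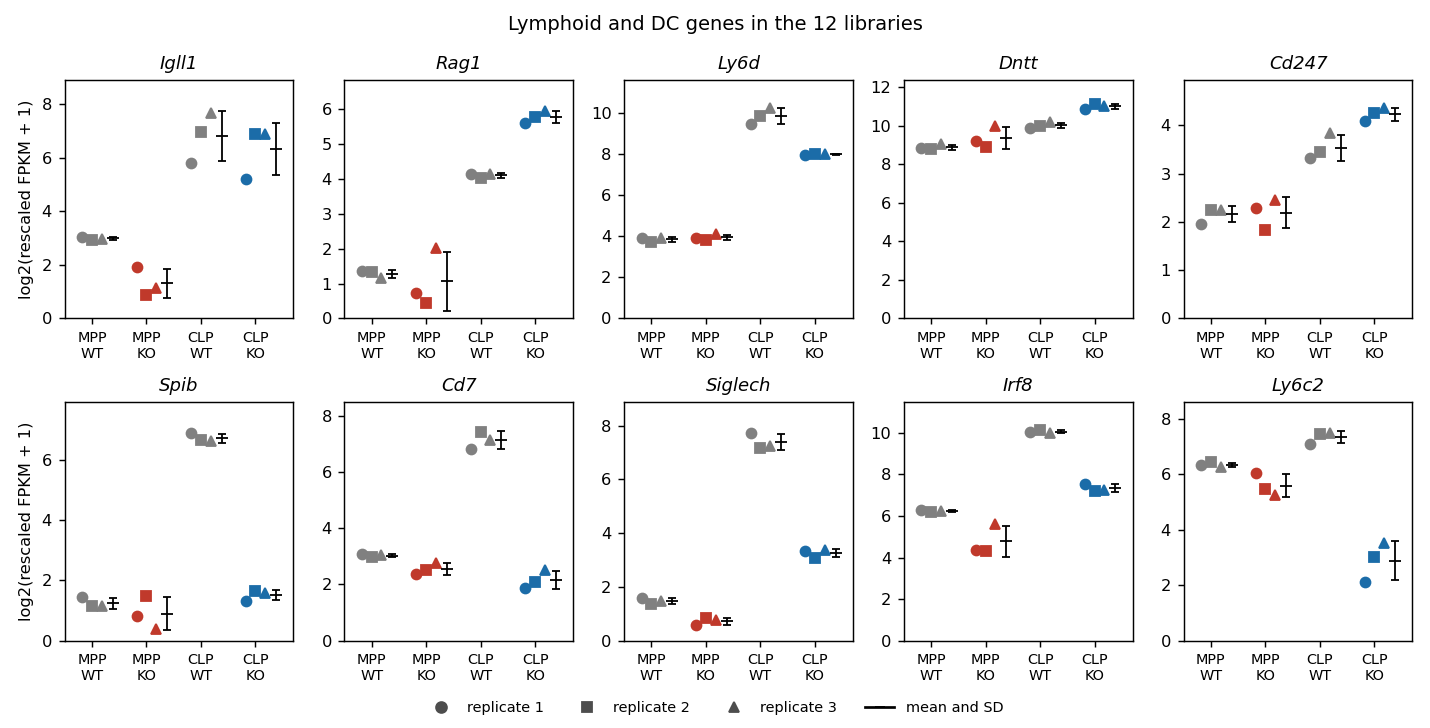
Levels of lymphoid and dendritic cell genes in the 12 CLP and MPP libraries, as log2(rescaled FPKM + 1), with 1 symbol per library and the mean and SD of each group (n = 3) as a bar. The B lymphoid genes are high in both CLP groups, whereas *Spib* lies at 1.49, 2.13 and 2.01 rescaled FPKM in KO CLPs and at 117, 99.1 and 97.8 in WT CLPs.

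Of 27 tested DC genes 3 were called higher and 1 lower in KO CLPs (2.34% and 2.54% of all tested genes), with a median of 0.20. Without MPP KO 3 the counts were 4 and 4 (3.99% and 6.74%). In WT libraries 20 of 32 were called higher and 0 lower (4.65% and 5.07%), with a median of 1.84. The interaction passed for 21 of 31 members in the negative direction and 0 in the positive (4.56% and 5.58% of all tested genes). The list was written with earlier results of these data known, so its count is no independent evidence of the direction.

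*Irf8* (RefSeq GRCm38.p6, chromosome 8, 120736358 to 120756694), encoding the factor on which type 1 conventional DCs depend, was higher in KO CLPs, which had 187, 148 and 150.2 rescaled FPKM where KO MPPs had 19.9, 19.1 and 48.4 (2.56 ± 0.342, adjusted p = 0.00597). The 3 CLPs were above every MPP, of which MPP KO 3 was the highest. WT CLPs had 1068, 1133 and 1013 and WT MPPs 77.7, 71.6 and 73.8 (3.83), and the interaction (-1.27 ± 0.381) had an adjusted p of 0.0581, above 0.05, but of 0.00151 without MPP KO 3 (-0.85). *Siglech*, a surface receptor of plasmacytoid DCs, had 9.01, 7.53 and 9.43 in KO CLPs and 0.497, 0.784 and 0.682 in KO MPPs (2.54 ± 0.146, adjusted p = 6.87e-04), against 210.2, 145 and 149 and 2.0, 1.55 and 1.8 in WT CLPs and MPPs (5.91). *Mycl*, a DC factor of the MYC family, had 3.07, 3.29 and 3.68 and 0.184, 0.193 and 0.356 (1.81 ± 0.13, adjusted p = 0.00107), against 32.7, 32.3 and 30.8 and 1.18, 1.19 and 1.04 (3.95). These are the 3 DC genes called higher in both genotypes, and for *Siglech* and *Mycl* the KO difference was the smaller (adjusted p = 3.09e-06 and 4.47e-06 for the interaction).

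Most other DC genes that distinguished WT CLPs from WT MPPs were not called in KO libraries. *Spib* (chromosome 7, 44525995 to 44532087), a factor of plasmacytoid DCs and B cells, had 1.49, 2.13 and 2.01 in KO CLPs and 0.777, 1.8 and 0.298 in KO MPPs (0.62 ± 0.28, adjusted p = 0.169), where WT CLPs had 117, 99.1 and 97.8 and WT MPPs 1.74, 1.22 and 1.19 (5.47). The KO groups overlapped, and the interaction of -4.85 ± 0.329 was the most negative among genes with at least 10 rescaled FPKM in some group. *Cd300c*, an activating receptor of myeloid cells and DCs, had 0.861, 0.766 and 0.898 and 0.788, 1.16 and 0.433 in KO libraries (0.058 ± 0.171, adjusted p = 0.835) and 36.8, 44.7 and 42.5 and 1.22, 0.438 and 0.841 in WT libraries (4.55). *Itgax*, encoding CD11c, which is negative in the CLP gate, had 5.3, 5.81 and 7.62 and 4.26, 3.89 and 5.55 (0.38 ± 0.182, adjusted p = 0.19), against 59.4, 69.7 and 55.9 in WT CLPs and 3.66, 3.36 and 3.33 in WT MPPs.

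*Runx2*, another factor of plasmacytoid DCs, had 43.2, 29.2 and 40.1 in KO CLPs and 33.3, 44.7 and 22.9 in KO MPPs (0.18 ± 0.258, adjusted p = 0.64, and -0.060 without MPP KO 3), where WT CLPs had 180.3, 101 and 111 and WT MPPs 30.6, 30.7 and 26.8. *Bst2*, an interferon-induced surface protein of plasmacytoid DCs, had 75.8, 87.6 and 75.4 and 105, 93.2 and 87.6 in KO and 467, 529 and 505 and 99.1, 95.3 and 111 in WT libraries. The lysosomal genes *Ctsh* and *Ifi30* and the nucleic acid receptor gene *Tlr9* had KO log2 fold changes of -0.31, -0.26 and 0.20 and WT ones of 3.17, 1.84 and 2.7. *Clec9a*, *Adam19* and *Cd209a* were too low to test in KO libraries, at most 0.269 rescaled FPKM in any of them. *Irf4*, *Tlr7*, *Bcl11a* and *Zeb2* were not called, with log2 fold changes of 0.63, 0.81, 0.78 and 0.59.

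A gene of DCs and monocytes was lower in KO CLPs. *Ly6c2*, encoding Ly6C of monocytes and plasmacytoid DCs, had 3.33, 7.1 and 10.4 in KO CLPs and 65.1, 43.1 and 36.9 in KO MPPs (-2.7 ± 0.372, adjusted p = 0.00652), where WT CLPs had 134, 172 and 177 and WT MPPs 79, 84.6 and 74.8 (1.0). The near copy *Ly6c1* had 0.386, 1.23 and 0.623 and 3.24, 2.38 and 0.74 and was not called, and reads can be shared between the pair. *Zbtb46*, a factor of conventional DCs, had 0.0791, 0.0982 and 0.214 in KO CLPs and 4.27, 4.87 and 0.154 in KO MPPs, and *Nfil3*, a factor of type 1 conventional DCs and innate lymphoid cells, 12.4, 10.1 and 10.6 and 31.9, 33.1 and 9.72. In both genes MPP KO 3 lay within or near the CLP values while the other MPPs were above them, so neither was called (adjusted p = 0.12 and 0.178) and both were lower without that library (-2.3 and -1.48, adjusted p = 8.71e-05 and 1.71e-04).

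Of 15 tested myeloid transcription factors 3 were called lower and 0 higher in KO CLPs (2.54% and 2.34% of all tested genes), with a median of 0.048. Without MPP KO 3 the counts were 6 and 2 (6.74% and 3.99%). At an unadjusted p of at most 0.05 limma with all libraries gave 5 in either direction. *Cebpa*, encoding the factor that starts the granulocyte programme, had 13.9, 14.9 and 13 in CLPs and 37, 37.3 and 32.3 in MPPs (-1.29 ± 0.113, adjusted p = 0.00163). *Cebpe*, which acts later in granulocyte maturation, had 0.425, 0.54 and 1.02 and 7.62, 4.87 and 3.48 (-1.89 ± 0.265, adjusted p = 0.00698). *Spi1*, encoding PU.1, had 67.7, 59.9 and 62.1 and 159, 148 and 100 (-1.06 ± 0.18, adjusted p = 0.0128), and its call was lost without CLP KO 2 (adjusted p = 0.0619), CLP KO 3 (adjusted p = 0.0646), MPP KO 1 (adjusted p = 0.0513) or MPP KO 2 (log2 -0.99). In WT libraries the log2 fold changes were -0.81, -1.79 and -0.97. The interaction passed for none of the 16 tested factors in limma. Without MPP KO 3 it passed for 3 in the positive and 2 in the negative direction, where 18.1% and 17.5% of all tested genes passed.

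Neutrophil granule genes were lower in KO CLPs nearly throughout. Of 23 tested members 20 were called lower and 0 higher in KO CLPs (2.54% and 2.34% of all tested genes), with a median of -2.61. All 20 were among the 22 called lower in WT CLPs (5.07%, list median -2.39). *Ngp*, encoding neutrophilic granule protein, had 8.03, 31.6 and 16.3 rescaled FPKM in KO CLPs and 290.4, 144 and 176 in KO MPPs (-3.51 ± 0.472, adjusted p = 0.00609). *Lcn2*, encoding the iron-binding lipocalin 2, had 3.13, 11.6 and 5.77 and 108, 51.7 and 73.4 (-3.42 ± 0.431, adjusted p = 0.00512). In both genes CLP KO 1 was the lowest and CLP KO 2 the highest CLP library, and MPP KO 1 the highest MPP. *Camp*, encoding cathelicidin, followed the same order of libraries, with 5.0, 20.1 and 13.2 and 161, 74.7 and 89.6 (-3.09 ± 0.487).

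Genes of the primary granules, which are made at the promyelocyte stage, were lower as well. *Elane*, encoding neutrophil elastase, had 11.3, 14.9 and 28.8 in KO CLPs and 267, 201 and 112 in KO MPPs (-3.34 ± 0.409, adjusted p = 0.00464). *Prtn3*, encoding proteinase 3, had 22.8, 29.2 and 45.8 and 414, 320.4 and 216 (-3.25 ± 0.309, adjusted p = 0.00216). *Mpo*, encoding myeloperoxidase, had 145, 154 and 142 and 555, 443 and 319.9 (-1.54 ± 0.192, adjusted p = 0.00499), with WT libraries at 114, 131 and 127 and 703, 693 and 566 (-2.39). In all 3 genes CLP and MPP values were far apart and MPP KO 3 was the lowest MPP. *Cd63*, encoding a granule membrane protein, had 4.58, 5.78 and 5.01 and 72.4, 58.4 and 34.6 (-3.14 ± 0.262, adjusted p = 0.00152).

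The remaining called members had log2 fold changes from -3.08 (*Ltf*, lactoferrin) to -1.02 (*Anxa3*). The calls of *S100a8* and *S100a9*, encoding calprotectin (-3.03 and -3.0), were lost without CLP KO 3 or MPP KO 1 (adjusted p up to 0.0851 and 0.0702), and that of *Anxa3* without CLP KO 1, CLP KO 3 or MPP KO 1 (short of the minimum, log2 -1.0 to -0.88). Of the 3 members that were not called, *Nkg7*, a cytotoxic granule gene, had 66.2, 80.1 and 75.7 in KO CLPs and 94.7, 66.8 and 79.2 in KO MPPs (-0.11), and *Serpinb1a*, an inhibitor of neutrophil proteases, 66.5, 93.2 and 86.4 and 80.0, 57.9 and 90.1 (0.12). Both had been lower in WT CLPs, at -1.53 and -1.12. The third, *Calr*, encoding the chaperone calreticulin, had -0.37. The 6 genes of later neutrophil maturation (*Ltf*, *Lcn2*, *Camp*, *Ngp*, *S100a8* and *S100a9*) summed to 46.8, 195 and 139 in KO CLPs and 1540.5, 688 and 947 in KO MPPs, and a part of mature neutrophil RNA in these values was not tested.

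**Figure D3:**
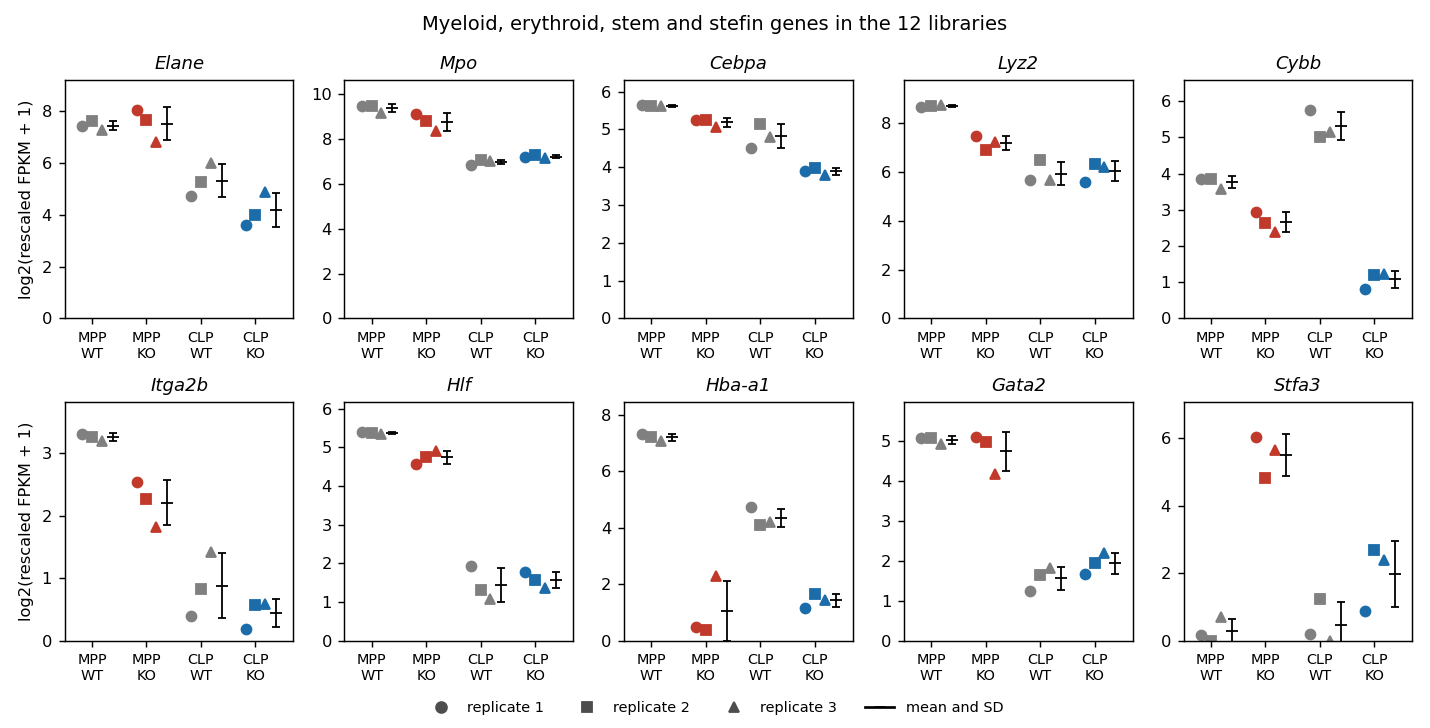
Levels of myeloid, erythroid, stem cell and stefin genes in the 12 libraries, as log2(rescaled FPKM + 1), with 1 symbol per library and the mean and SD of each group (n = 3). *Elane* and *Hlf* are lower in CLPs of both genotypes, *Cybb* is above the MPPs in WT CLPs and below them in KO CLPs, and *Stfa3* is high in the KO MPPs, at 27 to 64.4 rescaled FPKM.

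Genes of monocytes and macrophages were mixed in KO CLPs, with 2 called higher and 5 lower of 22 tested (2.34% and 2.54% of all tested genes). Their median was -0.22. In WT CLPs 8 and 8 of 24 were called (4.65% and 5.07%), with a median of 0.66. *Ly86*, encoding the MD-1 partner of the receptor RP105 that B cells also carry, had 27.2, 34.2 and 35.9 in KO CLPs and 4.69, 3.05 and 4.8 in KO MPPs (2.7 ± 0.187, adjusted p = 8.99e-04). *Clec12a*, an inhibitory receptor, was the other called higher (1.05 ± 0.235, adjusted p = 0.0307), but not without any 1 of the libraries CLP KO 1, CLP KO 2, CLP KO 3, MPP KO 1 and MPP KO 2 (adjusted p up to 0.123). *Csf3r*, encoding the receptor of granulocyte colony-stimulating factor, had 12.4, 13.3 and 13.6 and 39.4, 37.4 and 38.9 (-1.49 ± 0.0983, adjusted p = 7.63e-04), where WT MPPs had 60.2, 59.5 and 57.6. *Fcgr3*, encoding an Fc receptor, had 0.96, 1.36 and 1.5 and 11.6, 9.24 and 6.22 (-2.11 ± 0.228, adjusted p = 0.00296). *Lyz2*, encoding lysozyme M, had 46.8, 79.7 and 73.3 and 175, 119 and 148 (-1.15 ± 0.229, adjusted p = 0.0219), and the call was lost without CLP KO 1 (log2 -0.92), CLP KO 3 (adjusted p = 0.0704) or MPP KO 1 (adjusted p = 0.0917). Its near copy *Lyz1* had -1.04, and its call was lost without CLP KO 1, CLP KO 2, CLP KO 3 or MPP KO 1 (adjusted p up to 0.0872).

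*Cybb*, encoding the catalytic unit of the phagocyte NADPH oxidase, changed sides: it had 0.762, 1.31 and 1.34 in KO CLPs and 6.62, 5.25 and 4.2 in KO MPPs (-1.57 ± 0.196, adjusted p = 0.00498), whereas WT CLPs, at 52.5, 31.4 and 34.5, were above WT MPPs at 13.5, 13.5 and 10.9 (1.54). *Tyrobp* and *Fcer1g*, encoding signalling adaptors of myeloid and natural killer cell receptors, had 38.6, 61 and 61.9 and 37.9, 31 and 31.6 in KO CLPs, 81.9, 62.4 and 60.2 and 43.6, 34.9 and 38.2 in KO MPPs, and neither was called (-0.35 and -0.21). Both were called higher in WT CLPs (1.79 and 1.13). *Csf2rb2*, a receptor chain for interleukin 3, had log2 fold changes of 0.057 in KO and 3.06 in WT libraries. *Cd14*, a co-receptor for lipopolysaccharide, had 0.277, 0.275 and 1.04 in KO CLPs and 15.7, 11.5 and 1.01 in KO MPPs, with MPP KO 3 within the CLP values, and was called only without that library (-3.28, adjusted p = 1.68e-04).

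Basophil and mast cell genes were lower in KO CLPs in 6 of 9 tested members, and none was called higher (2.54% and 2.34% of all tested genes). Their median was -1.75, and 8 of 10 were lower in WT CLPs (5.07%). *Prss34* had 0.821, 5.64 and 5.03 in CLPs and 62.4, 39.6 and 38.1 in MPPs (-3.48 ± 0.498, adjusted p = 0.00729), and *Mcpt8*, another basophil protease gene, 1.14, 3.15 and 2.78 and 39.5, 22.2 and 17.9 (-3.02 ± 0.355, adjusted p = 0.00412). CLP KO 1 was the lowest library for both. *Gata2*, encoding a factor of stem cells, basophils and mast cells, had 2.19, 2.87 and 3.6 and 33.1, 30.3 and 17.2 (-2.81 ± 0.268, adjusted p = 0.00216). *Cpa3*, encoding carboxypeptidase A, had 0.326, 0.668 and 0.827 and 5.97, 3.39 and 4.04 in KO and 0.253, 0.40 and 1.0 and 12.3, 11.8 and 12.1 in WT libraries. *Hdc* and *Fcer1a* were also called, at -1.98 and -1.24. The members *Mcpt4* and *Tpsb2* were not analysed here.

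Platelet genes followed, with 5 of 9 tested members lower and 0 higher in KO CLPs (2.54% and 2.34% of all tested genes). Their median was -1.26, and all 5 were among the 7 lower in WT CLPs (5.07%). *Itga2b*, encoding CD41, had 0.139, 0.481 and 0.50 in KO CLPs and 4.8, 3.82 and 2.53 in KO MPPs (-1.76 ± 0.219). *Selp*, encoding P-selectin, had 0.119, 0.167 and 0.153 and 3.27, 2.89 and 1.94 (-1.67 ± 0.166). *Cd9* had -1.26. *Pf4*, encoding platelet factor 4, had 0.178, 0.432 and 0.551 and 3.57, 3.47 and 1.32 (-1.39 ± 0.283, adjusted p = 0.0232), with MPP KO 3 the lowest MPP, and its call was lost without CLP KO 1, CLP KO 2, CLP KO 3, MPP KO 1 or MPP KO 2 (adjusted p up to 0.0942). *Itgb3*, encoding integrin β3, was not called in KO libraries, with 2.58, 1.8 and 1.83 and 2.75, 5.87 and 2.09, and was higher in WT CLPs (1.66).

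Of the erythroid genes, 11 of 21 members were high enough to test in KO libraries. Of these, 3 were called lower and 1 higher in CLPs (2.54% and 2.34% of all tested genes), whereas 15 of 21 were lower in WT CLPs (5.07%). *Hba-a1*, encoding α-globin, had 1.25, 2.15 and 1.72 in KO CLPs and 0.389, 0.312 and 3.9 in KO MPPs (0.37 ± 0.497, adjusted p = 0.624), where WT MPPs had 158, 148 and 133 and WT CLPs 25.4, 16.3 and 17.3. *Hbb-bs*, encoding β-globin, had 0, 3.32 and 2.37 and 0, 0 and 2.25, where WT MPPs had 99.5, 108 and 89.1. *Hbb-bt*, a near copy of *Hbb-bs*, did not follow it, with 3.69, 3.11 and 3.01 in KO CLPs and 33.9, 49.9 and 47.1 in KO MPPs (-3.37 ± 0.173, adjusted p = 5.41e-04). Reads of such globin copies can be divided between them, so the values of single copies are uncertain. *Klf1* and *Gata1*, the factors of the erythroid programme, were at most 0.459 and 0.538 in any KO library and 3.59, 3.36 and 3.73 and 2.03, 2.37 and 2.32 in WT MPPs.

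*Car2*, encoding carbonic anhydrase 2, kept a difference, with 20.4, 28.7 and 31.2 in KO CLPs and 111, 102 and 123 in KO MPPs (-2.04 ± 0.171, adjusted p = 0.00152, and -3.08 in WT). *Nfe2*, a factor of erythroid cells and platelets, had 18.9, 19.7 and 18.5 and 42.8, 31.6 and 70.0 (-1.22 ± 0.264, adjusted p = 0.0278), and was not called without CLP KO 1, CLP KO 2, CLP KO 3, MPP KO 1 (adjusted p up to 0.109) or without MPP KO 3 (log2 -0.92). *Tfrc*, the transferrin receptor gene that every proliferating cell uses, was the member called higher in KO CLPs, with 92.6, 74.1 and 95.2 and 34.5, 35.6 and 23.9 (1.46 ± 0.181, adjusted p = 0.00479), and was higher in WT CLPs too (2.6).

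Stem and multipotent progenitor genes were lower in KO CLPs in 10 of 28 tested members and higher in 0 (2.54% and 2.34% of all tested genes). Their median was -0.62. In WT CLPs 17 of 28 were lower (5.07% of all tested genes were), with a median of -1.3, and the 10 of the KO comparison were all among them. *Hlf*, a stem cell factor, had 2.44, 1.97 and 1.57 in KO CLPs and 22.8, 25.8 and 28.9 in KO MPPs (-3.17 ± 0.161, adjusted p = 5.41e-04). *Mecom*, encoding the stem cell factor EVI1, had 0.831, 0.628 and 0.674 and 6.67, 9.13 and 4.78 (-2.16 ± 0.216, adjusted p = 0.00248). *Procr*, encoding the stem cell surface protein EPCR, had 0.0396, 0.137 and 0.214 and 10.5, 7.79 and 2.52 (-2.65 ± 0.412, adjusted p = 0.00958). The CLP and MPP values of these genes were far apart, and MPP KO 3 was the lowest MPP for *Procr* and *Mecom* and the highest for *Hlf*.

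*Angpt1*, encoding the niche ligand angiopoietin 1, had 12.3, 16.2 and 13.6 in KO CLPs and 41, 37.6 and 40.2 in KO MPPs (-1.44 ± 0.125, adjusted p = 0.00163), less than the WT difference of -2.98. *Lmo2*, an adaptor of stem cell transcription complexes, had 108, 126 and 128 and 261, 252 and 328 (-1.21 ± 0.131, adjusted p = 0.00307, and -2.07 in WT). *Gcnt2* and *Hoxa10* were also called, at -1.44 and -1.24. *Nkx2-3* had 2.69, 1.61 and 1.93 and 22.8, 25.9 and 6.8 (-2.49 ± 0.461, adjusted p = 0.0175), with MPP KO 3 far below the other MPPs, and was not called without CLP KO 1, CLP KO 2, CLP KO 3 or MPP KO 1 (adjusted p up to 0.079). *Muc13*, a membrane mucin gene, had 4.06, 5.86 and 11.2 and 29, 21.5 and 31.3 (-1.9 ± 0.323, adjusted p = 0.0131), and its call was lost without CLP KO 2 (adjusted p = 0.0616) or MPP KO 1 (adjusted p = 0.0631).

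Other stem cell genes whose interaction passed were not called in KO libraries. *Tal1*, encoding SCL, had 3.65, 4.84 and 4.64 in KO CLPs and 6.67, 4.84 and 8.71 in KO MPPs (-0.50), where WT MPPs had 15.9, 15.8 and 16.2 (-2.03). *Meis1*, a partner of HOX factors, had 14.7, 14 and 16.7 and 26.7, 22.3 and 23.2 (-0.63 ± 0.124, adjusted p = 0.0207), below the minimum fold change. *Hmga2*, a chromatin gene of fetal stem cells, had 13.9, 12.4 and 16.1 in KO CLPs and 7.51, 8.21 and 7.19 in KO MPPs (0.81 ± 0.136, adjusted p = 0.0128), while WT CLPs had 4.17, 2.73 and 2.75 and WT MPPs 7.61, 7.43 and 6.46 (-0.97). *Erg*, a stem cell factor of the ETS family, had 49.1, 50.6 and 54.9 and 34.3, 28.7 and 56.6 (0.42), and 29.8, 28 and 31.7 and 60.1, 55.8 and 55.9 in WT libraries (-0.92). The interaction passed in the positive direction for 13 and in the negative for 0 of the 28 tested members (5.58% and 4.56% of all tested genes).

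The stefin A family, cytosolic inhibitors of cathepsins, is encoded by a cluster of near-identical genes on chromosome 16. It was called lower in KO CLPs in 8 of 9 tested members (2.54% of all tested genes), with a median of -3.08. Between 4 and 8 were called when 1 library was left out. *Stfa3* had 0.821, 5.45 and 4.28 in KO CLPs and 64.4, 27 and 48.9 in KO MPPs (-3.51 ± 0.521, adjusted p = 0.00825). *Stfa2* had 1.77, 5.75 and 2.29 and 51, 21 and 41 (-3.2 ± 0.425, adjusted p = 0.0059), and *Stfa2l1* 1.98, 6.94 and 5.88 and 63.9, 26.7 and 54.3 (-3.08 ± 0.452, adjusted p = 0.0079). CLP KO 1 was the lowest CLP and MPP KO 1 the highest MPP for each. In the WT libraries these genes were at most 1.45, and limma called none of the 4 members high enough to test there (none of which had an unadjusted p of at most 0.05).

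*Stfa1*, *BC100530* and *Gm5483* had -3.11, -3.08 and -2.78, and their calls were lost without CLP KO 3 or MPP KO 1, and for the last 2 also without CLP KO 1 (adjusted p up to 0.10, 0.106 and 0.114). *2010005H15Rik* had -2.06, lost without CLP KO 1 (adjusted p = 0.0525) or CLP KO 3 (adjusted p = 0.0633), and *Gm5416* -2.01. Reads of these copies can be divided, so the family is better read as a whole than gene by gene. The interaction passed in the negative direction for 8 of 8 tested members (4.56% of all tested genes). With only 4 members high enough to test in WT libraries, members passed the filter largely through the KO MPPs. Their counts are therefore no independent evidence of the direction.

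Of 10 tested genes of antigen presentation on MHC class II, 2 were called higher and 0 lower in KO CLPs (2.34% and 2.54% of all tested genes). Without MPP KO 3 the counts were 2 and 4 (3.99% and 6.74%). *H2-Ob* and *H2-DMb2*, which encode chains of the peptide-editing molecules H2-O and H2-M, had 88.4, 109.8 and 123 and 9.33, 10.7 and 14.9 in CLPs and 36.5, 43.4 and 50.0 and 3.39, 3.3 and 5.33 in MPPs (1.29 ± 0.164 and 1.33 ± 0.227). The call of *H2-DMb2* was lost without CLP KO 2 (adjusted p = 0.0546), CLP KO 3 (adjusted p = 0.0573) or MPP KO 1 (adjusted p = 0.0641). The peptide-presenting chains were not called: *H2-Aa* had 12, 14.8 and 24.7 in CLPs and 46.8, 85.5 and 21.1 in MPPs (-1.37 ± 0.495, adjusted p = 0.107), with MPP KO 3 within the CLP values. Without that library *H2-Aa*, *H2-Ab1*, *H2-Eb1* and the invariant chain gene *Cd74* were lower in CLPs, at -1.88, -1.44, -1.69 and -1.48.

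Of the 25 tested genes of the cell cycle and DNA replication, limma called none in KO libraries (6 at an unadjusted p of at most 0.05), also without MPP KO 3, with a median of 0.093. *Rrm2*, a subunit of ribonucleotide reductase, had 58.3, 71.7 and 66.8 in KO CLPs and 35.9, 29.3 and 58 in KO MPPs (0.72 ± 0.241, adjusted p = 0.0911). The helicase genes *Mcm2* and *Mcm4* had log2 fold changes of 0.58 and 0.51. The proliferation marker *Mki67* had -0.13. The immediate early genes, which are induced within minutes by stimulation or handling of cells, gave 0 calls among 15 in limma (3 at an unadjusted p of at most 0.05). Without MPP KO 3 it called 3 higher and 4 lower (3.99% and 6.74% of all tested genes). These genes spread widely between libraries: *Nr4a1* had 545, 316 and 684 in KO CLPs and 1744, 1890.3 and 236 in KO MPPs, and *Fos* 953, 1632 and 2006 and 371, 222 and 1142.

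**Figure D4:**
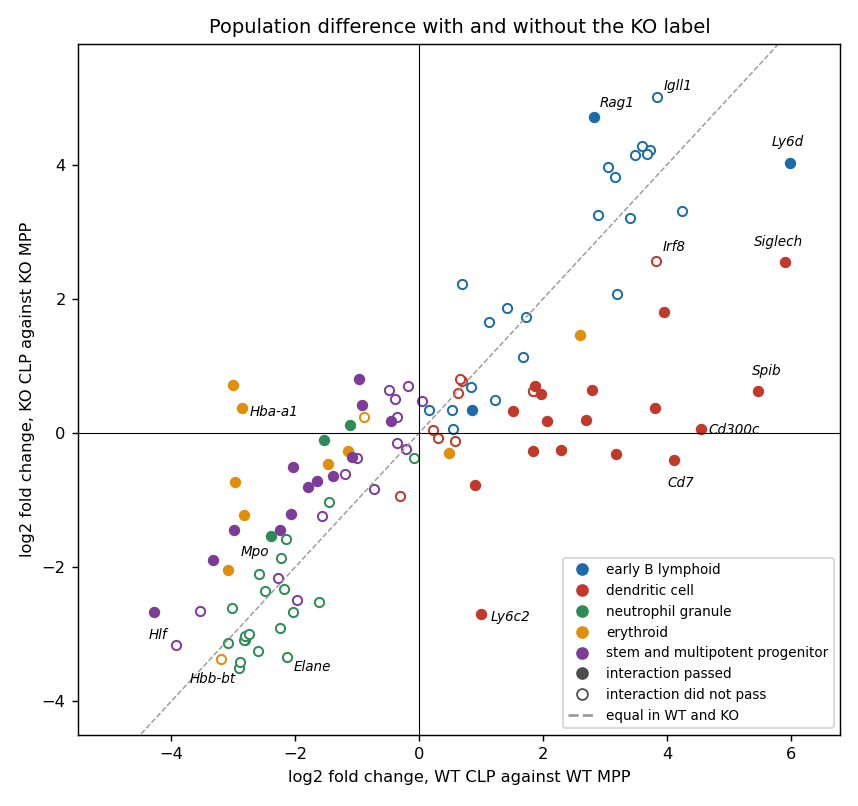
Log2 fold changes of CLPs against MPPs in WT libraries (horizontal axis) and in KO libraries (vertical axis) for the genes of 5 lists tested in both, with filled points where the interaction passed and a dashed line where both would be equal. Most early B lymphoid and neutrophil granule genes lie around the line, DC genes lie mostly below it, and several stem and erythroid genes lie above the line on the left. *Spib* is at 5.47 in WT and 0.62 in KO and *Siglech* at 5.91 and 2.54.

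Over all genes, the differences in WT and KO libraries were compared by count. Of 580 genes called higher in WT CLPs (4.65% of 12485), 173 were also called higher in KO CLPs, which is 29.8% of the WT and 60.1% of the KO list. Of the 633 called lower in WT CLPs (5.07%), 239 were also called lower in KO CLPs, 37.8% of the WT and 76.4% of the KO list. The lists share no library but share the difference between the tables. The fits were also unequal in precision, with a median SE of 0.158 in KO and 0.116 in WT libraries. An adjusted p of at most 0.05 in limma was reached by 1740 genes in KO and 5307 in WT. The share of WT calls found in KO is therefore not the share of differences that remained. Without MPP KO 3 the shared genes were 197 (34.0% of the WT list) and 287 (45.3%). Of the genes not shared, 258 of 342 tested in KO libraries had the same sign there for the higher list and 331 of 357 for the lower list. Medians were taken over the genes also tested in KO libraries, 515 of the 580 and 596 of the 633. The 515 had a median log2 fold change of 1.40 in WT libraries, which chose them, and 0.70 in KO libraries. For the 596 it was -1.47 and -0.93. Genes too low to test in KO libraries are in neither median.

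Genes called in opposite directions numbered 6, all higher in WT and lower in KO CLPs. They were *Cybb* (above), *Itgb7*, *Ptms*, *Slpi*, *Clec10a* and *Pirb*, named after their values were seen except for *Cybb*. *Itgb7*, encoding integrin β7 of gut-homing lymphocytes, had 13.5, 13.4 and 12.5 in KO CLPs and 32.4, 34.7 and 31.3 in KO MPPs (-1.26 ± 0.102, adjusted p = 0.0015), where WT CLPs had 89.1, 108 and 75.7 and WT MPPs 37, 37.8 and 38.3 (1.23). *Slpi*, encoding a secreted protease inhibitor, had 5.01, 4.6 and 4.37 and 16.5, 12.8 and 13.1 in KO and 31.6, 42.5 and 31.9 and 16, 15.9 and 16.1 in WT libraries. The levels of *Pirb*, encoding an inhibitory receptor of B and myeloid cells, were 0.613, 0.874 and 0.725 and 4.1, 2.29 and 3.64 in KO and 16.4, 20.3 and 12.9 and 7.15, 7.13 and 7.69 in WT libraries. *Ptms* and the lectin gene *Clec10a* had -1.17 and -1.19 in KO libraries. The call of *Ptms* was lost without MPP KO 1 (log2 -0.98), and that of *Clec10a* without CLP KO 1, CLP KO 2, CLP KO 3, MPP KO 1 (adjusted p up to 0.12) or without MPP KO 3 (log2 -0.92). Without MPP KO 3, 23 genes of the higher and 2 of the lower list were called in the opposite direction.

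Some of the largest differences between genotypes lay outside the lists of lymphoid and myeloid genes. *Lpl*, encoding lipoprotein lipase, had 15.8, 17.4 and 12.8 in KO CLPs and 1.12, 1.38 and 2.41 in KO MPPs (2.65 ± 0.217, adjusted p = 0.00151), while no WT library exceeded 0.725. *Prkcq*, encoding the protein kinase C θ of T cell signalling, had 25.8, 21.6 and 18.2 and 9.64, 8.09 and 14.5 (0.99 ± 0.227, adjusted p = 0.0334), while WT CLPs, at 2.86, 2.27 and 2.28, were below WT MPPs at 10.3, 10.3 and 11.8 (-1.77). *Cdh5*, encoding VE-cadherin of endothelium, was at most 0.257 in KO libraries and 15.5, 19.5 and 20.5 in WT CLPs. Of the remaining genes that the study follows, *Cdk9*, encoding the kinase of transcription elongation, had 51.8, 47.4 and 50.7 in KO CLPs and 51.5, 53 and 44.5 in KO MPPs (0.011 ± 0.105, adjusted p = 0.95), and *Bcl2l11*, encoding the death protein BIM, 35.7, 28.6 and 31.3 and 51.6, 82.5 and 11.6 (-0.22 ± 0.634, adjusted p = 0.827). In *Bcl2l11* MPP KO 1 and 2 were above and MPP KO 3 below every CLP library, and without MPP KO 3 it was called lower in CLPs (-1.02, adjusted p = 0.00585).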

How the data were processed

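RNA-seq of KO CLPs and KO MPPs (3 libraries each) was compared, with 3 WT libraries of each population beside them. The authors filtered reads with SOAPnuke 1.5.2, aligned them with Bowtie2 2.2.5 and computed FPKM per gene with RSEM 1.2.12. HISAT2 2.0.4 and mm10 are also named in the submitters' processing notes. The deposited FPKM are rounded to 2 decimals, and no column of values stayed without a sample. Read counts were not used here, so depth was estimated, in each library, from the steps of low FPKM of genes with 1 transcript.

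Genes were joined by identifier. Each library was divided by the median ratio over 10098 genes of at least 1 FPKM in all 12 libraries. Genes with a mean of at least 0.5 rescaled FPKM over the libraries of a fit were tested with lmFit and eBayes (trend) of limma 3.58.1 in R 4.3.3 and a pseudocount of 1, for KO, WT and the interaction. Fits were checked on simulated data. Python 3.11.15, pandas 2.3.3, numpy 2.4.6 and matplotlib 3.10.9 made summaries and figures. Alternatives were deposited FPKM, TPM, quantile normalization, a pseudocount of 0.1, no filter or a mean of 5, no trend, a replicate block, other call rules and leaving out each library.

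Named were *Trim33* and the gate genes, the 10 called genes with the largest change in each direction at a mean of at least 10, up to 6 members of each list plus any whose interaction passed, the 5 largest interactions in each direction, and genes the study follows; list members beyond these are named where a list is described. Values of a few genes that the rule would name are not reported here, though list counts hold them. The members, lists and rule were chosen with earlier results of these data known. Gene positions and promoters are from RefSeq GRCm38.p6, the build of mm10.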

Additional observations from a re-analysis of the deposited data

Results flagged for a closer look

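Differences that changed between genotypes were flagged by the interaction of population and genotype, (KO CLP - KO MPP) - (WT CLP - WT MPP) on log2(rescaled FPKM + 1), over all 12 libraries. It passed at a limma adjusted p of at most 0.05 for 1262 of 12446 tested genes, and for 4441 of 12461 without MPP KO 3. Of the genes named here it passed for 97, of which 70 passed without each of the 12 libraries in turn. Under other settings with all libraries it was lost for 5 of the 97 with FPKM as deposited, 11 with TPM, 7 with quantile normalization, 25 with a pseudocount of 0.1 and 7 with no filter. Those lost under at least 1 of the 3 other scalings were *Cd72*, *Tox* and *Sdc1* (all 3), *Il18r1* and *Sirpa* (2 of them), and *Blvrb*, *Etv6*, *Meis1*, *Ndn*, *Stfa1*, *BC100530*, *Gm5483*, *Tfrc*, *Gp9* and *Cd200r3* (1 each). Genes that differ between WT CLPs and WT MPPs were in part put on the lists with WT results known, so that their estimates are no independent evidence. Estimates (log2) are given by list, a gene of several lists once, and those of *Spib*, *Rag1* and other genes whose library values are in the results above are repeated here only as flags.

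Among DC genes the estimates were *Spib* (-4.85), *Cd7* (-4.51), *Cd300c* (-4.49), *Ly6c2* (-3.7), *Ctsh* (-3.49), *Itgax* (-3.43), *Siglech* (-3.36), *Bst2* (-2.55), *Tlr9* (-2.5), *Adam19* (-2.41), *Cd22* (-2.14), *Mycl* (-2.14), *Ifi30* (-2.1), *Runx2* (-1.89), *Clec9a* (-1.8), *Ly6c1* (-1.67), *Ccr9* (-1.38), *Tcf4* (-1.19), *Tlr12* (-1.16), *Cd8a* (-1.08) and *Cd209a* (-0.92). The adjusted p rose above 0.05 when 1 library was left out for *Ly6c1* (without 8 libraries, adjusted p up to 0.078) and *Ccr9* (without 7 libraries, adjusted p up to 0.0641). Of the early B lymphoid genes the estimates were *Ly6d* (-1.96), *Cd72* (-0.51) and *Rag1* (1.88). With 1 library left out the test was lost for *Cd72* (without MPP WT 1, adjusted p up to 0.0565) and *Rag1* (without 6 libraries, adjusted p up to 0.0588). Of the T and innate lymphoid genes the estimates were *Klrd1* (-1.76), *Thy1* (-1.75), *Il2rb* (-1.41), *Tox* (0.68) and *Il18r1* (1.18). Omitting a single library ended the pass of *Tox* (without 10 libraries, adjusted p up to 0.114) and *Il18r1* (without 10 libraries, adjusted p up to 0.0948).

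Among neutrophil granule genes the estimates were *Mpo* (0.85), *Serpinb1a* (1.24) and *Nkg7* (1.43). The adjusted p rose above 0.05 when 1 library was left out for *Mpo* (without 10 libraries, adjusted p up to 0.11). Of the monocyte and macrophage genes the estimates were *Cybb* (-3.11), *Csf2rb2* (-3.0), *Tyrobp* (-2.14), *Fcer1g* (-1.34), *Cd68* (-1.16), *Csf2rb* (-1.11), *Ctss* (-0.82), *Sirpa* (-0.74), *Ccr2* (1.0), *Csf3r* (1.13), *F13a1* (1.22), *Lyz1* (1.55), *Lyz2* (1.61) and *Fn1* (1.98). With 1 library left out the test was lost for *Ctss* (without 5 libraries, adjusted p up to 0.0618), *Sirpa* (without 7 libraries, adjusted p up to 0.0758) and *Ccr2* (without MPP WT 1, adjusted p up to 0.0512). Among erythroid genes the estimates were *Tfrc* (-1.14), *Blvrb* (-0.78), *Ermap* (0.81), *Zfpm1* (0.89), *Aqp1* (1.02), *Car2* (1.04), *Gata1* (1.04), *Alas2* (1.07), *Nfe2* (1.61), *Rhd* (1.62), *Klf1* (1.73), *Slc4a1* (1.73), *Car1* (2.24), *Ahsp* (2.6), *Hba-a1* (3.22), *Hba-a2* (3.39) and *Hbb-bs* (3.73). Omitting a single library ended the pass of *Tfrc* (without 5 libraries, adjusted p up to 0.0585), *Blvrb* (without 8 libraries, adjusted p up to 0.0901), *Ermap* (without 4 libraries, adjusted p up to 0.0632), *Zfpm1* (without 5 libraries, adjusted p up to 0.0672) and *Car2* (without 8 libraries, adjusted p up to 0.0689). Of the platelet genes the estimates were *Itgb3* (-2.16) and *Gp9* (0.76). The adjusted p rose above 0.05 when 1 library was left out for *Gp9* (without 8 libraries, adjusted p up to 0.0943). Among basophil and mast cell genes the estimates were *Fcer1a* (0.74), *Cd200r3* (0.81), *Ms4a2* (0.85) and *Cpa3* (1.35). With 1 library left out the test was lost for *Cd200r3* (without 5 libraries, adjusted p up to 0.0628).

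Of the stem and multipotent progenitor genes the estimates were *Etv6* (0.62), *Prdm16* (0.72), *Meis1* (0.76), *Gcnt2* (0.80), *Lmo2* (0.86), *Ndn* (0.94), *Esam* (1.0), *Erg* (1.34), *Muc13* (1.43), *Tal1* (1.53), *Angpt1* (1.54) and *Hmga2* (1.78). Omitting a single library ended the pass of *Etv6* (without 7 libraries, adjusted p up to 0.0781), *Prdm16* (without 4 libraries, adjusted p up to 0.0643), *Meis1* (without 9 libraries, adjusted p up to 0.085), *Gcnt2* (without 7 libraries, adjusted p up to 0.0638), *Ndn* (without 6 libraries, adjusted p up to 0.0604) and *Muc13* (without 8 libraries, adjusted p up to 0.0796). Among sort gate genes the estimates were *Cd34* (0.70) and *Kit* (1.44). Among stefin A genes the estimates were *Stfa3* (-3.7), *Stfa1* (-3.47), *BC100530* (-3.39), *Stfa2* (-3.16), *Stfa2l1* (-2.94), *Gm5483* (-2.62), *Gm5416* (-2.1) and *2010005H15Rik* (-1.94). The adjusted p rose above 0.05 when 1 library was left out for *Stfa1* (without 7 libraries, adjusted p up to 0.086), *BC100530* (without 7 libraries, adjusted p up to 0.0958) and *Gm5483* (without 9 libraries, adjusted p up to 0.108). Of the cell cycle genes the estimates were *Ccne1* (-0.91). Among mature B and plasma cell genes the estimates were *Sdc1* (-0.59) and *Jchain* (1.77). With 1 library left out the test was lost for *Sdc1* (without 9 libraries, adjusted p up to 0.0822). Of the stromal and endothelial genes the estimates were *Cdh5* (-3.9). Outside the lists they were *Prkcq* (2.75) and *Lpl* (2.71).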

How the results depend on the processing

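The KO counts of 288 higher and 313 lower genes moved by more than 1.5 times with deposited FPKM converted to TPM (517 higher), a filter at a mean of 5 (160 lower), no minimum fold change (839 and 901) and an adjusted p of at most 0.001 (15 and 14). Leaving out 1 library gave 183 to 491 higher and 214 to 829 lower, the highest without MPP KO 3, the lowest without MPP KO 1, and 184 higher without CLP KO 3. TPM moved the median KO log2 fold change of all genes by 0.15, and its larger values made the fixed pseudocount and filter weigh less. For WT, no minimum fold change gave 2559 and 2748, a pseudocount of 0.1 gave 1035 lower and the filter 335 lower. Leaving out 1 library gave 558 to 618 higher and 624 to 650 lower. The interaction (694 positive, 568 negative) gave 298 positive at the filter and 212 and 273 with an absolute estimate of at least 1. Leaving out 1 library gave 278 to 2257 positive and 335 to 2184 negative, highest without MPP KO 3. The cause of these shifts was not tested.

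The replicate block gave 239 and 248 called genes in KO, 601 and 636 in WT, and 792 and 726 for the interaction. Same-numbered KO CLPs and KO MPPs deviated together at correlations of -0.18, -0.28 and -0.14, so the numbers do not pair them. For the interaction, same-numbered KO and WT libraries correlated at 0.41, 0.34 and 0.13 in CLPs, each best with its own number, and at 0.026, 0.48 and 0.47 in MPPs, where MPP KO 1 correlated best with another number.

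Of 3613 values of 213 named results under the alternatives, 3261 kept direction and side of the threshold, 288 were weaker, 25 stronger, 29 moved and 10 reversed. The reversals were of genes not called: *Runx2* (-0.060 without MPP KO 3), *Cdk9* (-0.064 to 0.059 with 1 library left out), *Bcl2l11* (-1.02 to 0.34) and *Xist* (-0.90 to 0.46, and 0.026 with TPM). Depth limits genes near the filter, since a fold change of a gene with few FPKM is compressed by the pseudocount, and whole read counts could not be recovered.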

Other observations

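X- and Y-linked genes varied between libraries of 1 group. The Y-linked genes *Ddx3y*, *Eif2s3y*, *Kdm5d* and *Uty* summed to 0.109, 29.9 and 53.1 rescaled FPKM in KO CLPs 1, 2 and 3 and to 28.5, 2.2 and 0.0192 in KO MPPs, and *Xist* had 98.1, 25.9 and 13.9 and 14, 57.9 and 58.1. In WT CLPs the Y-linked sum was 0.0292, 18.1 and 28.5 and in WT MPPs 25.2, 32.1 and 21. The Y-linked sum was thus near 0 in CLP KO 1, CLP WT 1 and MPP KO 3, the last being the library that stood apart. The compared groups were not balanced in sex-linked expression. Sex was not part of any fit, and its part in any result was not tested. None of these 5 genes was called in KO libraries in limma, where none had an unadjusted p of at most 0.05, but *Kdm5d* (1.96) and *Uty* (1.54) were called higher in CLPs without CLP KO 1.

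The 15 immediate early genes summed to 4886, 6782 and 9808 in KO CLPs and 6876, 5995 and 5268 in KO MPPs, against 5026, 9081 and 10479 in WT CLPs and 13594, 12686 and 11965 in WT MPPs. Within KO MPPs *Nr4a1* and *Atf3* were high in libraries 1 and 2 (491 and 433 for *Atf3*) and low in MPP KO 3 (77.3), whereas *Fos* and *Dusp1* were highest in MPP KO 3 (354 against 153 and 97.7 for *Dusp1*). *Jchain*, a gene of plasma cells, had 0.782, 0.54 and 0.612 in KO CLPs and 0.572, 0.129 and 0.529 in KO MPPs, and 3.38, 5.51 and 4.73 in WT MPPs.

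Genes listed in only 1 table were in no comparison: 1541 in the MPP table, of which 59 exceeded 1 FPKM in some MPP library, and 209 in the CLP table, of which 27 exceeded 1 FPKM in some CLP library. The CLP table held no gene at 0 in all 6 CLP libraries, while the MPP table held 1341 at 0 in all 6 MPP libraries.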
